A study of Mus musculus with 9 samples.

Results

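The 7 genes Hsd3b5, Hsd3b2, Hsd3b3, Hsd11b1, Sult2a8, Srd5a1 and Akr1c6 encode enzymes with which the liver makes, interconverts, inactivates or sulfonates steroids. They were 7 of the 21470 genes in the expression table and were chosen by name. Their levels in the 3 groups of livers were known when they were chosen, so their values and the differences between groups are given as a description. Whether one of these genes passed the threshold of the limma fit, here or under other settings, is part of that description. It is not a valid test of a gene chosen with its values known. The libraries came from mouse liver in 3 groups of 3. BDL+LIG libraries came from mice that underwent ligation of the bile duct (BDL), surgery that dams bile back into the liver, and that also received ligustilide (LIG), a phthalide of Angelica and Ligusticum roots. BDL libraries came from ligated mice without LIG, and sham libraries from mice with a sham operation. The study asked what LIG did to hepatic gene expression in ligated mice. A dose of 10 mg/kg LIG stands in the study design, but 20 is the number in the sample titles, and these were not reconciled. Strain, sex, age and days after ligation were not stated in the labels. Whether any 2 libraries share a mouse is not stated either, so p-values describe the scatter among libraries, part of which may be technical.

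Steroid hormones circulate as active and inactive forms, and the liver sets much of the balance by reducing, oxidising and conjugating them. Hydroxysteroid dehydrogenases convert hydroxyl and keto groups into one another, reductases saturate the steroid rings, and sulfotransferases add sulfate, which makes steroids and bile acids more soluble. Several of these enzymes, Hsd3b5 among them, are known in mice as genes of the male liver.

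Of the 7 genes 3 are neighbours. In the RefSeq gene order Hsd3b5, Hsd3b2 and Hsd3b3 lie side by side on chromosome 3 with no other protein-coding gene between them. Hsd11b1 is on chromosome 1, Sult2a8 on chromosome 7 beside Sult2a6 and Sult2a7, and Srd5a1 and Akr1c6 are on chromosome 13, where Akr1c6 stands between its paralogs Akr1c12 and Akr1c20. RefSeq held a promoter for all 7, with a second start for Hsd3b3 and for Sult2a8, which made 9 promoters of 300 bases, 250 before and 50 after the start. Parts of the promoters of Hsd3b5 and Hsd3b3 are printed because these neighbours are close copies whose levels parted after ligation. Their best local alignment held 191 identical columns of 252, or 75.8%. The remaining pairs of the 3 neighbours aligned at 58.6% over 304 columns (Hsd3b5 and Hsd3b2) and 70.1% over 67 columns (Hsd3b2 and Hsd3b3). Pairs from different families came close to these, at 57.1% over 294 columns (Hsd3b5 and Hsd11b1) and 68.4% over 57 columns (Hsd11b1 and Sult2a8). Only the aligned parts are shown, 250 bases from position -250 to -1 of Hsd3b5 and 247 bases from -199 to 48 of Hsd3b3, so matching bases do not lie at the same distance from the 2 start sites. Capitals mark the bases at which these sequences differ. Both lie on the minus strand of build GRCm38.p6, Hsd3b5 at chr3:98645535-98645784 and Hsd3b3 at chr3:98763081-98763327.
Hsd3b5: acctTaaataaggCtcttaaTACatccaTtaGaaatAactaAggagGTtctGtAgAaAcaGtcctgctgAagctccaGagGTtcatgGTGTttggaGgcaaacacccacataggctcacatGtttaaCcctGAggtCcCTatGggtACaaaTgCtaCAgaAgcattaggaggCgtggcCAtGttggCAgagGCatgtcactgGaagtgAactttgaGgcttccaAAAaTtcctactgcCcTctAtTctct
Hsd3b3: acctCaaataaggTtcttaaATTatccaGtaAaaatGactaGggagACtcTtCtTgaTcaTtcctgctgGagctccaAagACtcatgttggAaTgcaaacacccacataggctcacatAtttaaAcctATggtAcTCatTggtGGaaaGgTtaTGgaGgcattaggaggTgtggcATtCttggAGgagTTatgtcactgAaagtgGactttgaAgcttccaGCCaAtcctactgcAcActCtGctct

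The second RefSeq promoter of Sult2a8, on the minus strand at chr7:14438502-14438801 of GRCm38.p6, is printed because Sult2a8 was the gene whose profile over the 9 libraries was nearest to that of Hsd3b5 among the 7. Capitals mark a match to the TATA box letters, TATAAA, whose first base is at position -29 from the start.
Sult2a8: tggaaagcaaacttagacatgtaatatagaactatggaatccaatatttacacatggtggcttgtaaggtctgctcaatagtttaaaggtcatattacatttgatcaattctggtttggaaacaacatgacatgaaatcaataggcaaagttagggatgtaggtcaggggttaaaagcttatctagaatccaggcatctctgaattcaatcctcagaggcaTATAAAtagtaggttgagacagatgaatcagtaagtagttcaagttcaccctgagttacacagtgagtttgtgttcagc

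On both strands, TATAAA stood in 3 of the 9 promoters, of which 2 were the promoters of Sult2a8 and 1 that of Akr1c6, against 13.6% of all 32851 mouse promoters in the table. The STAT5 letters TTCNNNGAA stood in 0 of 9, against 8.3% of all promoters. The glucocorticoid receptor half-site AGAACA stood in 1 of 9, that of Hsd3b2, against 19.0% of all promoters. Matches were also sought to 4 longer motifs, and each stood in 0 of 9 promoters. The CEBP letters TTGCGCAA stood in 0.183% of all promoters, the HNF4A direct repeat in 0.0396%, and the HNF1 palindrome and the full glucocorticoid response element, which contains the half-site, in 0.00913% each. These are matches of letters in a short window and say nothing about binding.

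The 9 libraries held 33088242 to 39167163 fragments, recovered from the steps of the deposited FPKM values (fragments scaled to transcript length and library size). All 7 genes were among the 10142 that passed the filter on low values, at least 1 FPKM in at least 3 libraries, and Hsd3b5 passed through its sham libraries alone. Hepatocyte markers were abundant in every library, with summed levels of 63600 to 66500 FPKM in BDL+LIG, 57500 to 66900 FPKM in BDL and 78400 to 87400 FPKM in sham livers. Sham library 1 stood apart from the other sham libraries, with Pearson correlations across genes of 0.974 and 0.964 against 0.989 between the other two. Differences below are of log2(FPKM + 1) ± SE from a limma fit of all 9 libraries, a scale that understates the change of genes near 1 FPKM.

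Ligation was accompanied by a near loss of Hsd3b5 and Sult2a8 transcripts and by lower levels of Hsd11b1, Akr1c6, Hsd3b2 and Hsd3b3, while Srd5a1 overlapped with its sham level. The 7 genes together summed to 458 ± 89.7 FPKM in BDL+LIG livers, 508 ± 21.9 FPKM in BDL livers and 1520 ± 146 FPKM in sham livers (SD, n = 3 each). Of the 7 genes 6, all but Srd5a1, had wholly lower values in BDL than in sham livers, and 0 wholly higher ones, against 11.3% and 33.7% of all genes tested. The same 6 were past an adjusted p of 0.05 in the lower direction, as were 6.76% of all genes tested, and 0 of the 7 were past it in the higher direction, as were 22.9% of all genes tested. The choice of the genes used these values, so the counts carry no weight of their own. Median-of-ratios scaling moved the median difference of all genes from BDL to sham to -0.03, against 0.16 here, and made 52% of all called genes higher, against 77.2% here. In these whole-liver libraries fewer hepatocytes and less RNA per hepatocyte cannot be told apart.

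**Figure D1:**
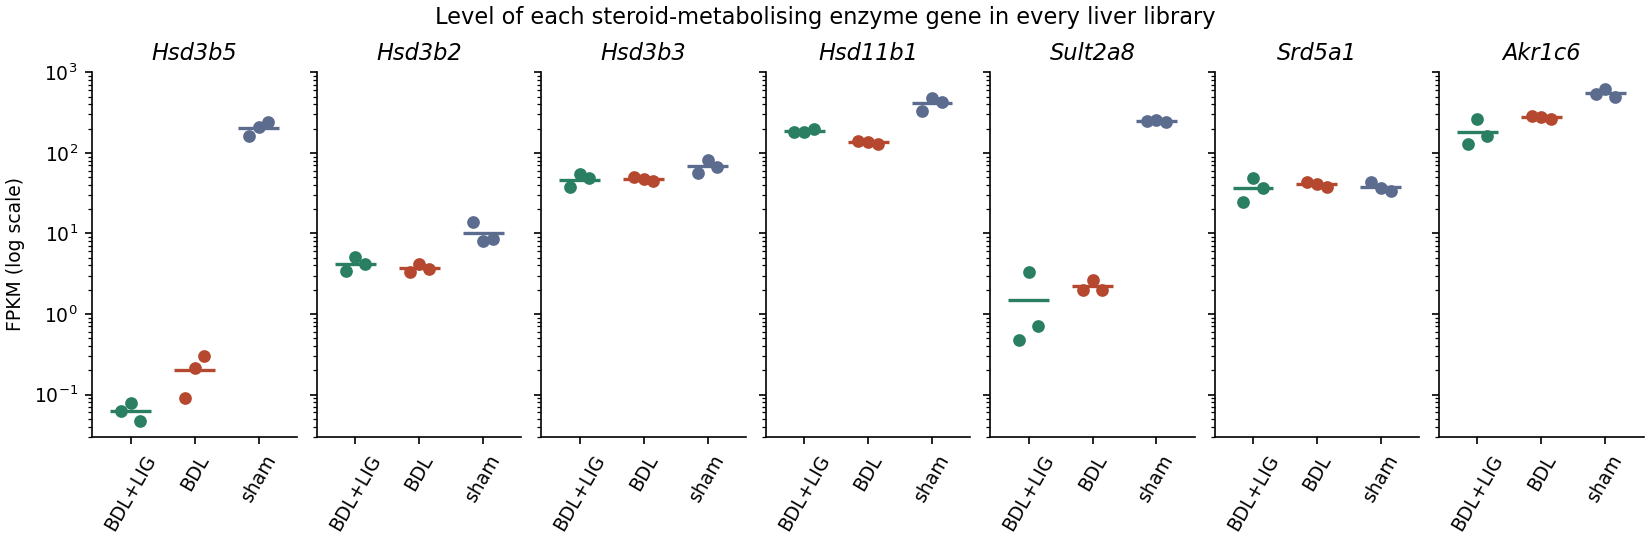
FPKM of each gene on a log axis in BDL+LIG, BDL and sham livers, from left to right. Points are the 3 libraries of a group in the order of their numbers and bars are their means. Hsd3b5, at 0.0471 to 0.304 FPKM, and Sult2a8, at 0.475 to 3.30 FPKM, lie lowest in the ligated livers, against 161 to 243 and 241 to 252 FPKM in sham livers.

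Hsd3b5 is a member of the 3beta-hydroxysteroid dehydrogenase family that acts in the mouse liver as a 3-ketosteroid reductase. Its level was 0.0622, 0.0789 and 0.0471 FPKM in the BDL+LIG libraries 1 to 3, from 4, 5 and 3 fragments. In BDL livers it was 0.0915, 0.214 and 0.304 FPKM, from 6, 14 and 17 fragments. In sham livers it was 161, 211 and 243 FPKM, from 9400, 11993 and 13650 fragments. The ligated groups did not overlap with the sham group, and the BDL+LIG libraries all lay below the BDL libraries. The BDL mean was 0.0991% of the sham mean, 1010-fold lower, with a 95% interval for counting error of 732 to 1430. The BDL+LIG mean was 3270-fold lower than the sham mean, with an interval of 1870 to 6330. On the log2 scale the difference of BDL from sham was -7.40 ± 0.16, the lowest of all 10142 genes, and -7.57 without sham library 1.

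Hsd3b3, a dehydrogenase and isomerase of the same family that is expressed in mouse liver and kidney, parted from its neighbour. It had 37.3, 53.9 and 48.2 FPKM in BDL+LIG livers and 50.0, 47.6 and 45.1 FPKM in BDL livers, against 56.4, 82.4 and 67.2 FPKM in sham livers. Both ligated groups lay below the sham group, and the BDL libraries fell within the range of the BDL+LIG libraries. The BDL mean was 69.3% of the sham mean. Its difference of BDL from sham, -0.51 ± 0.17, was the one most dependent on the processing, being short of an adjusted p of 0.05 in 8 of 19 alternative settings, with values of -0.76 to -0.37 over all 19.

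Hsd3b2, a dehydrogenase and isomerase known mainly from mouse kidney, was the least abundant of the 3 neighbours in sham livers and the second in ligated ones. Its level was 3.38, 5.03 and 4.22 FPKM in BDL+LIG livers, 3.29, 4.16 and 3.57 FPKM in BDL livers, and 14.0, 8.05 and 8.53 FPKM in sham livers. The ligated libraries all lay below the sham libraries, and the highest value was in sham library 1, the library that stood apart. The difference of BDL from sham was -1.23 ± 0.20 with that library and -0.99 without it.

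The make-up of the family changed with these levels. Hsd3b5 made up 0.126 ± 0.0325% of the summed FPKM of the 3 neighbours in BDL+LIG livers and 0.401 ± 0.224% in BDL livers, against 72.0 ± 3.76% in sham livers (SD, n = 3 each). Hsd3b3 made up 91.6 ± 0.306% in BDL+LIG livers, 92.5 ± 1.1% in BDL livers and 24.3 ± 3.15% in sham livers. Their sum was 50.7 ± 9.28, 51.4 ± 2.21 and 284 ± 46.5 FPKM in BDL+LIG, BDL and sham livers, so the ligated livers had a lower sum and a higher Hsd3b3 share. The paralogs Hsd3b1, Hsd3b4 and Hsd3b6 were at 0 or at most 0.031 FPKM in every library.

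**Figure D2:**
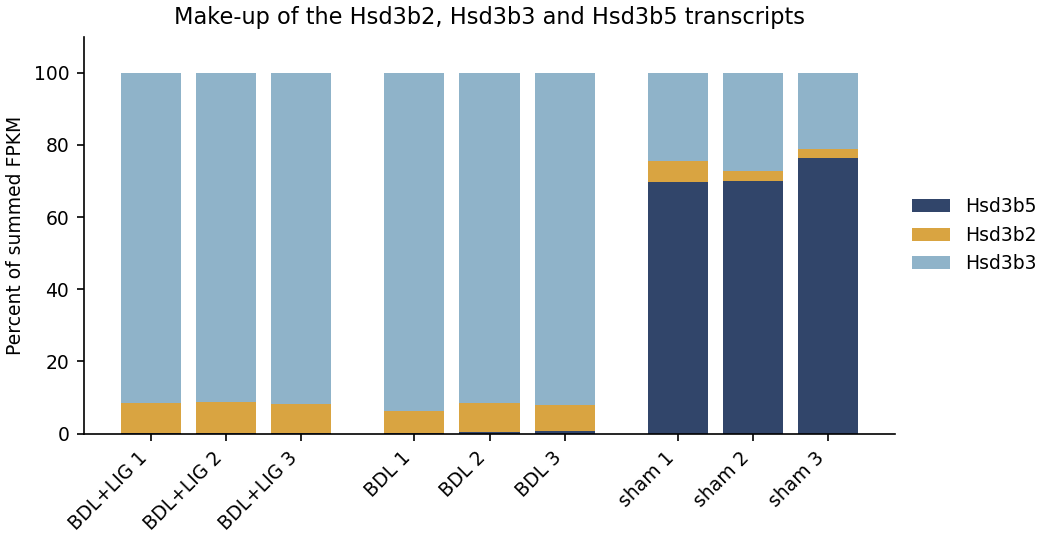
Percent of the summed FPKM of Hsd3b5, Hsd3b2 and Hsd3b3 held by each gene, one bar per library, with BDL+LIG, BDL and sham libraries from left to right. Hsd3b5 holds 69.6% to 76.3% in the sham libraries and at most 0.62% in the ligated ones, where Hsd3b3 holds 91.3% to 93.7%.

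Reads from close copies can be assigned to the wrong gene. Of the 100-base windows of the transcripts, 7.79% for Hsd3b5, 7.09% for Hsd3b2 and 14.9% for Hsd3b3 were found also in another mouse gene, and 14.9% for Srd5a1, all with the predicted gene Gm17108. With 150-base windows the shares were 1.21%, 2.23%, 6.14% and 13.1%. Hsd11b1, Sult2a8 and Akr1c6 shared no 100-base window with another gene. For Hsd3b5 only 12 fragments over the 3 BDL+LIG libraries and 37 over the 3 BDL libraries were counted, and whether they came from shared windows was not tested.

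Sult2a8, a cytosolic sulfotransferase of mouse liver known for the sulfonation of bile acids, had the next lowest difference among the 7. Its level was 0.475, 3.30 and 0.709 FPKM in BDL+LIG livers and 1.99, 2.62 and 2.00 FPKM in BDL livers, against 245, 252 and 241 FPKM in sham livers. The sham libraries varied by a SD of 2.31% of their mean, the narrowest spread of the 7 genes there, while the BDL+LIG libraries varied by 105% of theirs. The BDL mean was 112-fold lower than the sham mean (counting interval 103 to 121) and the BDL+LIG mean 164-fold lower (150 to 181). The log2 difference of BDL from sham was -6.27 ± 0.32, the sixth lowest of all genes. Its neighbour Sult2a7 was below the filter on low values, at 0, 0 and 0.0229 FPKM in BDL+LIG livers, 0.111, 0.0446 and 0.365 FPKM in BDL livers and 0.425, 0.871 and 1.12 FPKM in sham livers, and here too the sham libraries were the highest.

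Hsd11b1 regenerates active glucocorticoid, corticosterone in mice, from its inactive 11-keto form, using NADPH that H6pd supplies inside the endoplasmic reticulum. Hsd11b1 had 180, 180 and 195 FPKM in BDL+LIG livers, 142, 137 and 130 FPKM in BDL livers, and 334, 481 and 422 FPKM in sham livers. The 3 groups did not overlap, and BDL livers were the lowest. The BDL mean was 33.0% of the sham mean, and the BDL+LIG mean was 44.9% of the sham mean and 136% of the BDL mean. H6pd had 62.3 ± 9.27, 49.4 ± 0.907 and 48.7 ± 3.8 FPKM in BDL+LIG, BDL and sham livers, so the ratio of Hsd11b1 to H6pd was 3.02 ± 0.452 in BDL+LIG and 2.76 ± 0.108 in BDL livers, against 8.55 ± 1.99 in sham livers (SD, n = 3 each). Hsd11b2, which runs the opposite reaction in kidney, was at 0.12 FPKM or less in every library.

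Srd5a1, the type 1 steroid 5alpha-reductase, reduces testosterone, corticosterone and related steroids. It had 24.8, 48.5 and 36.7 FPKM in BDL+LIG livers, 43.1, 41.0 and 38.1 FPKM in BDL livers, and 43.3, 36.7 and 33.4 FPKM in sham livers. All 3 groups overlapped. The BDL mean was 108% of the sham mean, with a log2 difference of 0.11 ± 0.21 that turned to -0.14 under one of 19 alternative settings, median-of-ratios scaling. Akr1d1, the 5beta-reductase that acts on the same kind of substrate and in bile acid synthesis, had 37.0 ± 5.28 and 36.0 ± 2.87 FPKM in BDL+LIG and BDL livers, against 12.8 ± 3.23 FPKM in sham livers. The ratio of Srd5a1 to Akr1d1 was therefore 1.03 ± 0.451 in BDL+LIG and 1.14 ± 0.16 in BDL livers, against 3.04 ± 0.573 in sham livers (SD, n = 3 each).

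Akr1c6, the 17beta-hydroxysteroid dehydrogenase of the mouse aldo-keto reductase family, was the most abundant of the 7 in BDL and in sham livers. Its level was 129, 262 and 160 FPKM in BDL+LIG livers, 286, 281 and 264 FPKM in BDL livers, and 540, 612 and 487 FPKM in sham livers. The groups did not overlap, although BDL+LIG library 2 came close to the lowest BDL library. The BDL mean was 50.7% of the sham mean, and the BDL+LIG mean was 33.6% of the sham mean and 66.2% of the BDL mean. The ratio of Akr1c6 to Akr1c20 was 7.16 ± 1.61 in BDL+LIG and 7.66 ± 1.05 in BDL livers, against 16.1 ± 1.16 in sham livers, while the ratio to Akr1c12 was 5.62 ± 1.6, 7.4 ± 0.371 and 8.52 ± 0.406 (SD, n = 3 each).

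**Figure D3:**
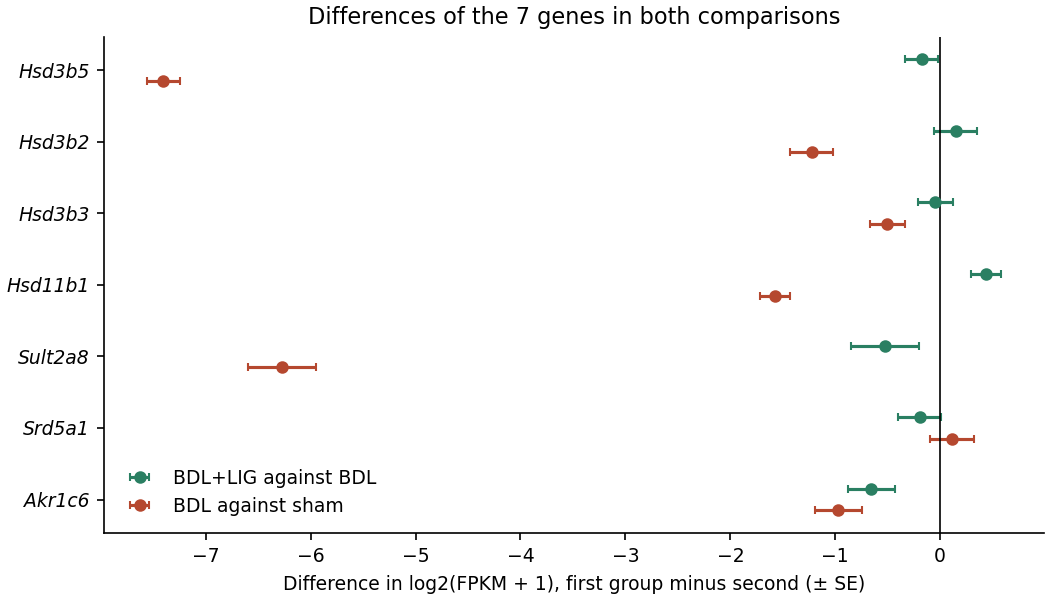
Difference of log2(FPKM + 1) with its SE for each gene, BDL+LIG minus BDL and BDL minus sham. The differences of BDL from sham run from -7.40 for Hsd3b5 to 0.11 for Srd5a1, whereas those of BDL+LIG from BDL lie between -0.66 and 0.44.

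The order of the levels was different in the ligated livers. In sham livers it ran from Akr1c6 through Hsd11b1, Sult2a8, Hsd3b5, Hsd3b3 and Srd5a1 to Hsd3b2, and among neighbours in that order only Sult2a8 and Hsd3b5 overlapped. In BDL livers it ran Akr1c6, Hsd11b1, Hsd3b3, Srd5a1, Hsd3b2, Sult2a8 and Hsd3b5, with no overlap between neighbours in the order. In BDL+LIG livers Hsd11b1, at 185 ± 8.96 FPKM, and Akr1c6, at 184 ± 69.6 FPKM, could not be told apart, nor could Hsd3b3 and Srd5a1. Levels are per length of transcript and can be compared between genes.

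Levels were also set relative to hepatocyte markers. Per 10000 FPKM of summed hepatocyte markers, Hsd3b5 stood at 0.00971 ± 0.00259 FPKM in BDL+LIG and 0.0338 ± 0.0196 FPKM in BDL livers, against 25.1 ± 5.49 FPKM in sham livers. On this scale Hsd11b1 stood at 28.5 ± 0.736, 22.0 ± 0.772 and 50.2 ± 7.28 FPKM, and Akr1c6 at 28.3 ± 10.9, 44.8 ± 1.73 and 66.6 ± 4.09 FPKM, in BDL+LIG, BDL and sham livers. Hsd3b3 stood at 7.16 ± 1.26 and 7.68 ± 0.196 FPKM in BDL+LIG and BDL livers, against 8.36 ± 1.19 FPKM in sham livers, a gap within the spread of the sham libraries (SD, n = 3 each). Srd5a1 stood at 5.66 ± 1.82 FPKM in BDL+LIG and 6.58 ± 0.125 FPKM in BDL livers, against 4.63 ± 0.69 FPKM in sham livers (SD, n = 3 each), so both ligated means were above the sham mean on this scale.

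LIG was given to ligated mice, and the comparison of BDL+LIG with BDL livers addresses what it changed there. In both ligated groups 6 of the 7 genes lay wholly below the sham livers, the exception being Srd5a1. Hsd11b1 was higher in all 3 BDL+LIG libraries than in any BDL library, with a log2 difference of 0.44 ± 0.14, and Hsd3b5 and Akr1c6 were lower in all 3, with differences of -0.18 ± 0.16 and -0.66 ± 0.22. The pseudocount of 1 holds the value of Hsd3b5 near 0, since its BDL+LIG mean was 3.24-fold lower than its BDL mean. The counting interval, 1.85 to 6.27, takes in the error of the 12 BDL+LIG fragments alone and not that of the 37 BDL fragments. The log2 difference of Hsd3b5 was -1.41 with voom on the recovered fragments. Of all genes tested 40.7% were wholly higher and 10.5% wholly lower in this comparison. Of the 7 genes 0 were past an adjusted p of 0.05 in either direction by limma, where 9.98% of all genes tested were past it in the higher and 1.79% in the lower direction. The differences of the other genes were 0.15 ± 0.20 for Hsd3b2, -0.05 ± 0.17 for Hsd3b3, -0.53 ± 0.32 for Sult2a8 and -0.20 ± 0.21 for Srd5a1, each smaller than 2 times its SE. The median difference of the 7 genes was -0.18, against 0.18 over all genes tested. Hsd11b1 was past the threshold under 5 of 19 alternative settings, at 0.22 to 0.59 over all 19, and without sham library 1 it was among these 5 at 0.44.

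Against the same sham libraries, the BDL+LIG livers gave log2 differences of -7.58 ± 0.16 for Hsd3b5, -6.80 ± 0.32 for Sult2a8 and -1.63 ± 0.22 for Akr1c6. The differences were -1.14 ± 0.14 for Hsd11b1, -1.08 ± 0.20 for Hsd3b2, -0.55 ± 0.17 for Hsd3b3 and -0.08 ± 0.21 for Srd5a1. Of the 7 genes 6 were wholly lower and past the threshold in the lower direction, and 0 were wholly higher or past it in the higher direction. Of all genes tested 9.71% were wholly lower and 45.7% wholly higher, and 8.92% and 43.7% were past the threshold in the lower and the higher direction, and again nothing is read from these counts

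The BDL+LIG libraries were unlike one another for these genes. Library 2 held the highest value of its group for 6 of the 7 genes, all but Hsd11b1, and 53.2% of all genes tested were also highest there. Library 1 held the lowest value for 6 of 7, all but Hsd3b5, as did 48.1% of all genes tested. The SD was 37.9% of the mean for Akr1c6 and 32.3% for Srd5a1 in BDL+LIG livers, against 4.14% and 6.1% in BDL livers. Without BDL+LIG library 2 the differences from BDL livers were -0.94 for Akr1c6 and -1.01 for Sult2a8, against -0.66 and -0.53 with it. The summed level of macrophage markers was also uneven, at 666 to 1420 FPKM in BDL+LIG livers and 544 to 794 FPKM in BDL livers, and its part in these values was not tested.

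**Figure D4:**
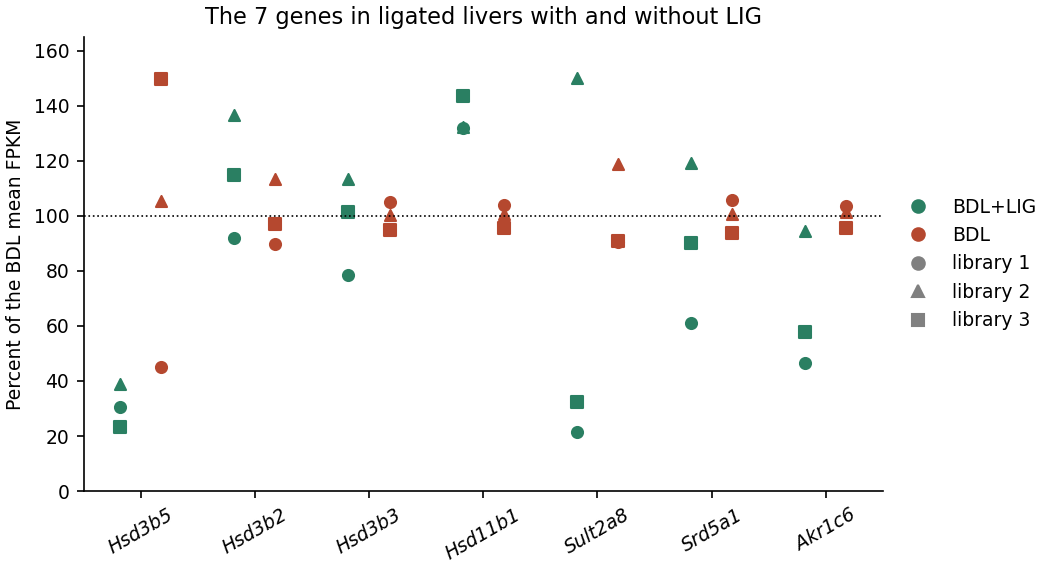
FPKM of each gene in the BDL+LIG and BDL libraries as a percent of the BDL mean, with one marker shape per library number and the BDL mean at the dotted line. BDL+LIG library 2 is the highest of its group for 6 of 7 genes, and Hsd11b1 is the gene with all 3 BDL+LIG libraries above the BDL libraries.

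Genes with the most similar profiles were found by the root mean square difference of centred log2(FPKM + 1) over the 9 libraries, a description in which all genes share libraries and groups. For Hsd3b5 these were Mup18 and Mup15, at 0.73 each, and Mup7, at 0.83, all major urinary proteins, while Sult2a8 was nearer still at 0.63. For Sult2a8 they were Serpina1e at 0.45, Mup18 at 0.61 and Slco1a1, an organic anion transporter, at 0.7. Serpina1e averaged 296 ± 145 and 273 ± 31.7 FPKM in BDL+LIG and BDL livers. For Hsd11b1 they were Cyp2d9 and Serpina1c, at 0.13 each, and Serpina1d at 0.17. For Akr1c6 they were Rgn, also called regucalcin, at 0.16, Glyat at 0.17 and Selenbp2 at 0.22. Hsd3b3 was nearest to Grhpr, Prdx4 and Mrps10 at 0.11 to 0.12, Srd5a1 to Nifk, Alkbh6 and Skp1 at 0.11 to 0.13, and Hsd3b2 to Albfm1, Ccdc84 and Fam214a at 0.16 to 0.17, a smaller distance being reached more easily by genes that vary little.

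Other genes of steroid metabolism were taken from 6 lists of 65 genes, of which 58 were in the table and 43 passed the filter on low values. In BDL against sham livers 15 of the 43 fell and 8 rose, which is 34.9% and 18.6%, against 6.76% and 22.9% of all genes tested, and their median difference was -0.28 against 0.16. Under median-of-ratios scaling 19 fell and 3 rose, and without sham library 1, 16 fell and 9 rose. With other single libraries left out, 3 rose without BDL library 2 or 3 and 4 without sham library 2, and 13 to 18 genes fell with any 1 library left out. The UDP-glucuronosyltransferases, which attach glucuronic acid to steroids, gave 5 falls and 0 rises among 8, with Ugt2b1 at 28.4 ± 9.00 FPKM in BDL+LIG and 23.9 ± 2.67 FPKM in BDL livers, against 285 ± 33.7 FPKM in sham livers. The fall of Ugt2b1 after ligation was -3.52 ± 0.21 (limma, adjusted p = 2.7e-06), and that of Ugt2b38 was -2.88 ± 0.21 (limma, adjusted p = 8.4e-06). Among 13 genes of the cytochrome P450 list 4 fell and 3 rose, with Cyp7b1, the oxysterol 7alpha-hydroxylase, changing by -3.40 ± 0.19 (limma, adjusted p = 2.0e-06) and Cyp2c29 by -2.17 ± 0.18 (limma, adjusted p = 1.7e-05). Hsd3b7, which acts in bile acid synthesis, fell by 1.00 ± 0.14 (limma, adjusted p = 0.00045) and was the one tested gene of the remaining 3beta family.

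Of 8 tested 17beta-hydroxysteroid dehydrogenases 3 fell and 2 rose, but 1 fell and 0 rose without BDL library 2 or 3 or sham library 2, 1 fell and 1 rose without BDL library 1, and 2 fell and 1 rose without sham library 3. Hsd17b2, which oxidises estradiol and testosterone, fell by 0.97 ± 0.12 (limma, adjusted p = 0.00025). Among 9 aldo-keto and steroid reductases and their partners 2 fell (4 without sham library 3), Akr1c14 by 1.48 ± 0.23 and Akr1c12 by 0.76 ± 0.12 (limma, adjusted p = 0.00099 and 0.0014), and 2 rose, Akr1d1 by 1.45 ± 0.18 (limma, adjusted p = 0.00024) and Srd5a3, at 0.46 ± 0.14. The sulfotransferase list, the group of Sult2a8, gave 1 rise among 4, the estrogen sulfotransferase Sult1e1. It had 4.23 ± 5.09 FPKM in BDL+LIG and 2.91 ± 0.569 FPKM in BDL livers, against 0.161 ± 0.206 FPKM in sham livers. At that sham level Sult1e1 passed the filter on low values only through ligated libraries and could hardly fall. Its rise, counted among the 8 of the 43 genes, therefore says little. The calls of Srd5a3 and Sult1e1 were lost without BDL library 2 or 3, or sham library 2 or 3, and that of Srd5a3 also without BDL library 1, with differences of 0.40 to 0.49 and 1.65 to 1.89 over the libraries left out.

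In BDL+LIG against BDL livers 2 of the 43 rose and 1 fell, which is 4.65% and 2.33%, against 9.98% and 1.79% of all genes tested. Cyp2c29 rose by 0.95 ± 0.18 (limma, adjusted p = 0.015), at 149 ± 33.0 FPKM in BDL+LIG livers and 75.8 ± 12.5 FPKM in BDL livers. Cyp2b10 rose by 1.14 ± 0.32 (limma, adjusted p = 0.045), a call lost in 12 of 18 alternative settings, among them a pseudocount of 0.1, median-of-ratios scaling and the loss of BDL+LIG library 2 or 3, any BDL library or sham library 2, with 0.88 to 1.47 over the libraries left out. Hsd17b2 fell by 0.49 ± 0.12 (limma, adjusted p = 0.032), a call lost in 8 of 19 settings, among them the loss of any one BDL+LIG or BDL library, with -0.52 to -0.46 over the libraries left out. Without any one of BDL libraries 1, 2 and 3 the count of calls among the 43 was 0, without BDL+LIG library 3 it was 1, and without sham library 1 or 3 it was 8 or 6.

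**Figure D5:**
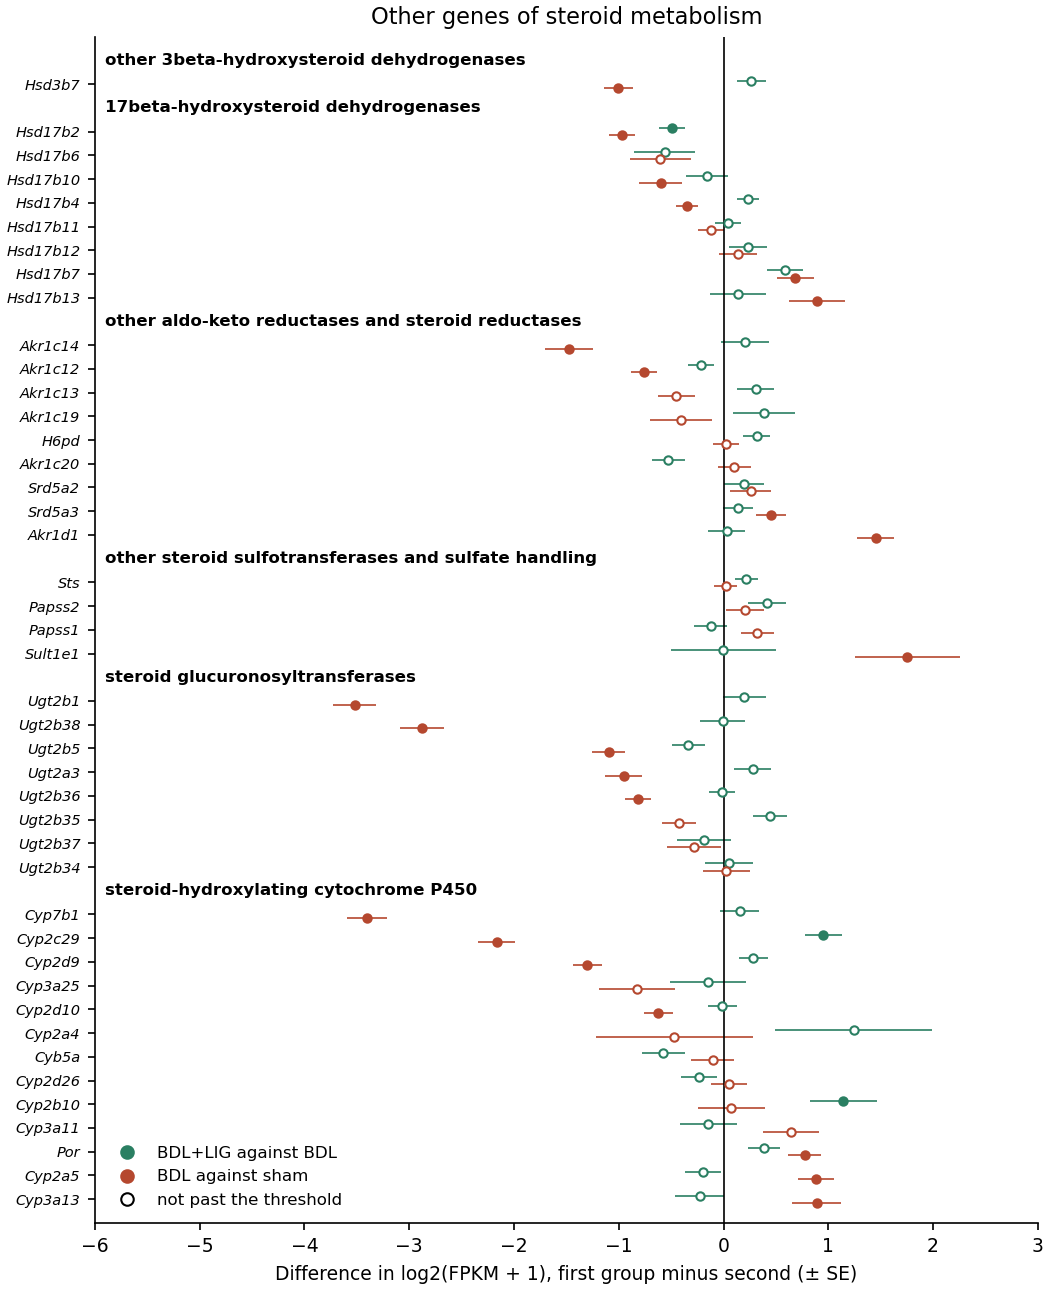
Difference of log2(FPKM + 1) with its SE for the 43 tested genes of the 6 lists, BDL+LIG minus BDL and BDL minus sham, with filled points past an adjusted p of 0.05. Of the differences of BDL from sham 15 filled points lie below 0 and 8 above, and of those of BDL+LIG from BDL 1 lies below and 2 above.

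Markers of other cell types moved with the groups. All 12 macrophage markers, 8 of 9 tested cholangiocyte markers and 7 of 12 stellate cell and myofibroblast markers rose in BDL against sham livers, and their summed levels were 544 to 794, 443 to 634 and 87.3 to 110 FPKM in BDL livers, against 126 to 212, 24.7 to 44.6 and 18.2 to 48.0 FPKM in sham livers. None of their genes was at 0 throughout a group. A marker near 0 in sham livers passes the filter on low values only through ligated libraries, so a rise was nearly the only change open to it. Of 15 hepatocyte markers 3 fell and 2 rose, of 11 pericentral hepatocyte genes 3 fell and 0 rose, and of 12 periportal genes 3 fell and 2 rose, against 6.76% lower and 22.9% higher of all genes tested. Of the hepatocyte markers 0 rose without any one BDL library, sham library 2 or 3, or BDL+LIG library 3, and 5 fell and 4 rose without sham library 1. Of the periportal genes 1 rose without any one BDL library or sham library 2 or 3. For stellate cell and myofibroblast markers the count of rises was 5 without any one BDL library or sham library 2, and 8 without sham library 1. For pericentral genes the count of falls was 2 without BDL library 1 or 2, and 4 without BDL+LIG library 2 or sham library 1. The part of these shifts in the levels of the 7 genes was not tested. Adrenal and gonadal markers, of which 7 of 12 were in the table, summed to 8.65 to 9.87 FPKM in BDL+LIG, 6.03 to 7.5 FPKM in BDL and 3.51 to 13.1 FPKM in sham livers, and Star, which starts steroid synthesis in those glands, was at 0.313 FPKM or less in every library.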

How the data were processed

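The 9 mouse liver libraries were made from TRIzol-extracted total RNA with a VAHTS Universal V6 kit, per the labels' protocols. DESeq2, fastp, HISAT2 (version 2.1.0) and the build GRCm39 appear in the submitters' processing notes. Which annotation and which counter were used is not stated in the labels. The authors deposited FPKM in 1 table of 21470 genes and 9 libraries, which were grouped and numbered by their titles. FPKM values were whole multiples of 1 fragment for 19448 of 19449 genes (99.99%, within 0.02 fragments), the exception being Alb, and the recovered fragments were used for depth and for 1 alternative.

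The fit was limma 3.58.1 in R 4.3.3 (lmFit, eBayes with trend) on log2(FPKM + 1) of all 9 libraries, for the 10142 genes that reached 1 FPKM in 3 or more libraries, with Benjamini and Hochberg adjustment over these genes and a threshold of 0.05. It was tried on simulated data with the same spread in every group and few changed genes. These libraries differ in both, so that trial does not show how the fit performs here. With 3 libraries against 3 the smallest two-sided p of an exact permutation test is 0.1, which is why a fit that shares its spread across genes was used. Counting intervals are at 95% and cover only the counting error of the first-named group, the mean of the second being taken as exact. BDL+LIG against sham and BDL against sham share the sham libraries, and BDL+LIG against BDL shares the BDL libraries with BDL against sham. The 7 genes and the 18 gene lists were chosen with earlier results of these data known, so counts over them are descriptions and not independent support. Genes named from a list are up to 4 with the smallest p in BDL against sham and up to 2 in BDL+LIG against BDL. The 3 genes most like a member were sought among named genes with a mean of at least 5 FPKM in a group. The genes Hsd3b1, Hsd3b4, Hsd3b6, Sult2a7, Hsd11b2 and Star fall outside that rule and were named after their values were seen. Promoters are from RefSeq (GRCm38.p6), and transcripts for shared windows from GENCODE. The alternatives were a pseudocount of 0.1, a mean of at least 5 FPKM or no filter, median-of-ratios scaling, TPM, quantile normalization, robust eBayes, the 2 compared groups alone, a replicate block, voom on the fragments, and each library left out in turn.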

Additional observations from a re-analysis of the deposited data

How the results depend on the processing

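Of 19 alternative settings, none changed the direction of Hsd3b5, Hsd3b2, Hsd3b3, Hsd11b1, Sult2a8 or Akr1c6 in BDL against sham livers. The 3008 genes past the threshold in BDL against sham livers were 1838 with a mean of at least 5 FPKM, and 1894 to 4668 with a library left out, highest without sham library 1 (4668) and lowest without BDL library 2 (1902) or 3 (1894). In BDL+LIG against BDL livers the 1194 genes were 623 with no filter, 575 with a mean of at least 5 FPKM, 686 under median-of-ratios scaling, 1926 as TPM, 3433 from the 2 groups alone and 742 with a replicate block. With a library left out they were 0 to 3144, namely 716, 289 and 322 without BDL+LIG library 1, 2 or 3, 40, 0 and 54 without BDL library 1, 2 or 3, and 3144 without sham library 1, and the 0 by limma stood beside 2317 genes at an unadjusted p under 0.05. The 5335 genes in BDL+LIG against sham livers were 2765 with a mean of at least 5 FPKM. The 3 other steroid-pathway genes past the threshold in BDL+LIG against BDL livers were 1 with no filter, 7 as TPM, 12 from the 2 groups alone, and 0 to 8 with a library left out. Of the 7 genes, 0 were past the threshold in that comparison, 1 (Akr1c6, lower) under median-of-ratios scaling, 1 (Hsd11b1, higher) as TPM, under quantile normalization, from the 2 groups alone and with voom, and 0 to 2 with a library left out, highest without BDL+LIG library 2 (Akr1c6 and Sult2a8, lower). The cause of these shifts was not tested. H6pd and Ugt2b35 in BDL+LIG against sham livers turned to -0.13 and -0.45 under median-of-ratios scaling. Scaling set the balance of directions, since 77.2% of called genes were higher in BDL than in sham livers, against 52% under median-of-ratios scaling and 51.9% under quantile normalization, which moved the median of all genes to -0.03 against 0.16. In BDL+LIG against BDL livers the share was 84.8%, against 49.6%, 52% and, as TPM, 94.9%, and in BDL+LIG against sham livers it was 83%, against 49.1% and 50.3%. Whether the replicate numbers pair the samples is not stated in the labels. Correlations of same-numbered deviations were -0.13 to 0.28. Of 6 libraries, 6 correlated best with their own number in BDL+LIG with BDL. In BDL with sham 0 did, and in BDL+LIG with sham 4 did. Counts of 3 to 17 fragments limit Hsd3b5 in single ligated libraries.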

Other observations

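Glucocorticoid and growth hormone signalling are known to act on the liver genes of steroid metabolism, and genes around both were measured in the same libraries. Of 14 glucocorticoid-responsive genes 8 rose and 1 fell in BDL against sham livers (10 and 1 without sham library 1, and 0 fell without any one BDL+LIG library, BDL library 2 or 3, or sham library 3), or 57.1% and 7.14%, against 22.9% higher and 6.76% lower of all genes tested, and Hsd11b1 was at 33.0% of its sham mean. Ddit4, an inhibitor of mTOR signalling, changed by 2.47 ± 0.19 and Tsc22d3, the glucocorticoid-induced leucine zipper, by 1.07 ± 0.13 on the log2 scale (limma, adjusted p = 1.2e-05 and 0.00018). Serpina6, the corticosteroid-binding globulin of plasma, fell to 36.6 ± 8.06 FPKM in BDL livers, against 249 ± 35.3 FPKM in sham livers (-2.74 ± 0.33, limma, adjusted p = 0.00019). Fkbp5, a co-chaperone of steroid receptors, had 37.6 ± 7.69 FPKM in BDL+LIG, 20.3 ± 1.35 FPKM in BDL and 9.87 ± 1.54 FPKM in sham livers (SD, n = 3 each). Its rise in BDL+LIG against BDL livers was 0.84 ± 0.16 and that of Sgk1 0.79 ± 0.14 (limma, adjusted p = 0.016 and 0.014), and both calls were lost without any one of BDL libraries 1, 2 and 3, and that of Fkbp5 also without BDL+LIG library 3 and under median-of-ratios scaling, at 0.71 to 1.00 and 0.69 to 0.91 over the libraries left out. In this comparison 3 of the 14 glucocorticoid-responsive genes rose, 0 fell and 11 were not past the threshold. That is 21.4% higher, against 9.98% of all genes tested. The count of rises was 0 without any one BDL library and 5 without sham library 1. Ddit4 and Tsc22d3 differed by -0.27 and -0.13, neither past the threshold.

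Genes known to be higher in the male than in the female mouse liver fell with Hsd3b5 and Sult2a8. Of 18 such genes 16 fell and 0 rose in BDL against sham livers, also with any 1 library left out, with a median difference of -2.94, and of 10 tested female-biased genes 5 rose and 0 fell, with a median of 0.79. That is 88.9% of the male-biased genes lower and 50.0% of the female-biased genes higher, against 6.76% lower and 22.9% higher of all genes tested, whose median difference was 0.16. Both lists were chosen with earlier results of these data known, so these counts are a description. Values were present for 24 female-biased genes, with a sum of 8.96 to 33.8 FPKM in sham livers, and only 10 passed the filter. A gene near 0 in sham livers passes the filter on low values only through ligated libraries, so it could hardly fall. The 0 falls, the 50.0% higher and the median of 0.79 among the female-biased genes therefore say little. The male-biased gene Slco1a1 changed by -4.99 ± 0.30 (limma, adjusted p = 2.9e-06). In BDL+LIG against BDL livers 3 of the 18 male-biased genes fell, or 16.7%, against 1.79% lower of all genes tested. With a library left out 0 to 5 fell. Mup3, one of these 3, fell by 2.14 ± 0.29 (limma, adjusted p = 0.0073, lost without BDL library 2). It had 61.0 ± 28.2 FPKM in BDL+LIG livers, against 259 ± 56.3 FPKM in BDL livers. Of the 10 tested female-biased genes 2 rose and 0 fell in this comparison, against 9.98% higher of all genes tested. These were Acot3, by 2.141, and Acot4, by 1.215. Both calls were lost without BDL library 2, and that of Acot4 also without BDL library 1. Of 15 genes of growth hormone signalling and sex-bias control 2 fell and 2 rose in BDL against sham livers, which is 13.3% each against 6.76% and 22.9% of all genes tested. With sham library 1 left out 3 fell and 4 rose, and with BDL library 2 or 3 left out 1 rose. The growth hormone receptor gene Ghr was one of those that fell, by 0.95 ± 0.12 (limma, adjusted p = 0.00026), and Igfals the other, by 1.05. Those that rose were Socs3, by 1.41, and Cish, by 1.08, a call lost in 5 of 18 alternative settings. Of 8 tested steroid receptors and binding proteins 1 rose and 1 fell, or 12.5% each, and the glucocorticoid receptor gene Nr3c1 differed by 0.09 ± 0.16 (limma, adjusted p = 0.72).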
